A study of Mus musculus with 60 samples.

Results

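The comparison described here is the effect of a high-fat, high-sucrose (HF/HS) diet on the liver of male mice at 60 weeks, the longest of the 3 time points of the study. Its members are 10 of the 60 libraries, chosen by the diet, week and sex fields of their labels and not by any measured value: 5 males fed the HF/HS diet (animals 91, 92, 101, 251 and 252) and 5 males fed the control diet (animals 11, 21, 22, 23 and 171). All animals belonged to CC042/GeniUnc, an inbred line of the Collaborative Cross panel, so every value describes 1 genetic background. In the HF/HS diet 42% of the energy came from milkfat, with 0.2% cholesterol and more than 30% sucrose; the control diet was matched in ingredients and low in fat and sucrose. The labels used here do not state the age at which feeding began. Total RNA of whole liver was sequenced and deposited as read counts per gene, with 13741001 to 16858458 counts in each of the 10 libraries. Levels are given below as CPM, the read count of a gene scaled to the total and composition of its library. Values per animal are always in the order of the animal numbers above, and the diet effect is the log2 fold change of HF/HS over control ± its standard error (n = 5 animals per diet, edgeR quasi-likelihood test with Benjamini-Hochberg adjustment, threshold 0.05).

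Steatotic liver disease begins with fat stored as droplets in hepatocytes, the cells that make plasma proteins, glucose, bile acids and urea. Where it progresses, monocytes enter from the blood and become macrophages, stellate cells and portal fibroblasts lay down collagen, and cells with bile duct features multiply in what pathologists call a ductular reaction. Hepatocytes of such livers are known to lose part of their metabolic gene programme.

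The 10 libraries did not fall cleanly into the 2 diets. The first principal component of log2 CPM carried 55.7% of the variance, and 4 HF/HS animals lay between 30.2 and 47.3 on it, while the controls lay between -54.8 and -5.19. Of these, controls 23 and 171 lay lowest, at -54.8 and -50.3, and controls 11, 21 and 22 lay between -22.6 and -5.19. HF/HS animal 91 lay at -19.8, among the controls. Its log2 CPM profile had r = 0.988 with the mean of the controls and r = 0.975 with the mean of the other HF/HS animals, across genes, which are not independent replicates. The labels place animal 91 in the HF/HS group and it was kept there. Its summed level of 16 collagen genes, 517.2 CPM, was inside the control range of 446.0 to 713.0 CPM. Its summed level of 18 glucose output and glycogen genes was 6577 CPM. That sum was 9526 to 11570 CPM in controls and 6521 to 8024 CPM in the other HF/HS animals. In some lists it lay outside both groups. Its sum of 20 fatty acid synthesis genes was 14530 CPM, against 24920 to 33530 CPM in controls and 26360 to 27090 CPM in the other HF/HS animals. For 24 cholesterol synthesis and uptake genes it was 2298 CPM, against 3302 to 4465 and 3612 to 4523 CPM. Whether its label is wrong, it responded less or it differed in another way was not tested. Of the other libraries, control animals 22 and 23 held the most pancreas RNA: the summed level of 15 pancreas genes was 273.0 and 186.0 CPM in them, 19.5 to 51.4 CPM in the other controls and 6.47 to 34.1 CPM in the HF/HS group. Some counts are given below also without these libraries.

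**Figure D1:**
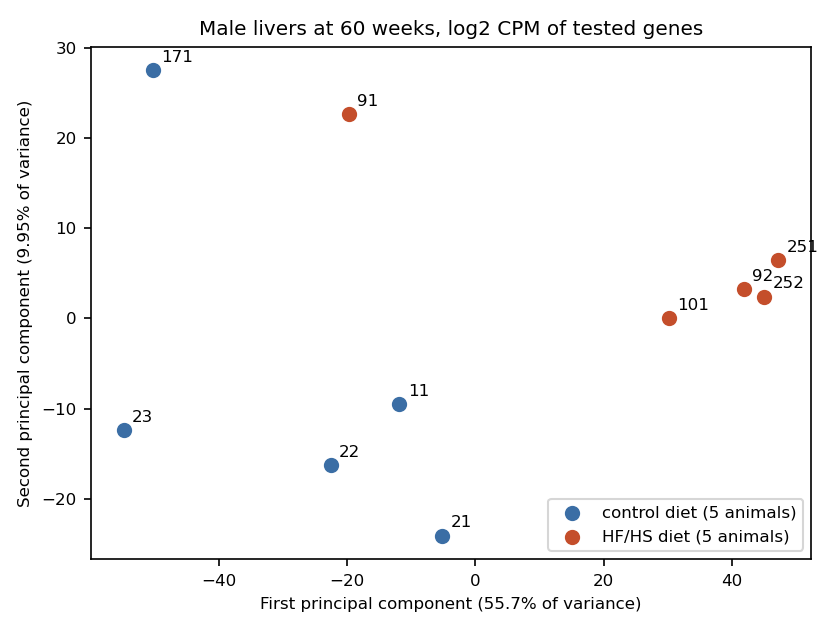
First 2 principal components of log2 CPM over the tested genes in the 10 male libraries at 60 weeks, 1 point per animal, labelled with the animal number. The other 4 HF/HS animals lie at 30.2 to 47.3 on the first axis, whereas HF/HS animal 91 lies at -19.8, between the controls.

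Of 14180 genes tested, 3974 differed between the diets, or 28.0%; 2197 were higher in HF/HS (15.5%) and 1777 lower (12.5%). Fitted on the 10 libraries alone, 1219 were higher and 796 lower. The median over all tested genes was -0.01 on the log2 scale. Fold changes of 2 or more were reached by 812 of the higher genes but by 114 of the lower ones. CPM ranges did not overlap between the diets in 1273 of the 14180 tested genes, 1085 of them called. Animal 91 exceeded every control in 678 of the 2197 higher genes, against 1943 to 2107 in the other 4 HF/HS animals, and was below every control in 766 of the 1777 lower genes, against 1464 to 1536. Without animal 91, 2483 genes were higher and 2660 lower. Without control animals 22 and 23, 1263 were higher and 1339 lower. With control 22 alone left out 3925 genes were called, with control 23 alone 2985 and with control 171 alone 2785. The part of pancreas RNA in these shifts was not tested.

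The gene with the lowest p in the comparison was Casp12 (mm10 chr9:5345430-5373032, plus strand), an inflammatory-type caspase of the endoplasmic reticulum. Its level was 2.52, 3.98, 2.49, 1.62 and 2.01 CPM in the controls and 3.92, 15.4, 15.4, 23.6 and 22.7 CPM in HF/HS, a diet effect of 2.67 ± 0.28 (adjusted p = 1.33e-08). The other HF/HS animals were far above every control, while animal 91 lay just under the highest control.

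Many genes of the extracellular matrix were higher in HF/HS. The enzymes and inhibitors that turn matrix over were led by Mmp7 (mm10 chr9:7692090-7699585, plus strand), matrilysin, a protease made by injured epithelium. The controls held 0.360, 0.674, 0.262, 0.385 and 0.575 CPM of Mmp7, and the HF/HS animals 0.442, 8.55, 4.19, 3.78 and 8.23 CPM. Animal 91 stood inside the control range and the other 4 above it (3.47 ± 0.42, adjusted p = 1.80e-07). Timp1, which inhibits such proteases, was at 0.540, 0.0674, 0.131, 0 and 0 CPM in the controls and at 0.126, 1.62, 1.21, 1.71 and 2.38 CPM in HF/HS (3.08 ± 0.55, adjusted p = 7.38e-05). Again only animal 91 overlapped the controls. Of the 17 tested genes of matrix proteases and inhibitors, 12 were higher and 1 lower, with a median of 0.92; without control animals 22 and 23, 8 were higher.

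Among structural proteins, Col1a1, the main chain of type I collagen, measured 15.7, 22.5, 13.02, 6.09 and 12.9 CPM in controls and 14.7, 97.7, 45.1, 82.5 and 98.5 CPM in HF/HS (2.26 ± 0.40, adjusted p = 5.73e-05), so that animal 91 was again inside the control range. Its partner chain Col1a2 (1.68 ± 0.32), the type III chain Col3a1 (1.54 ± 0.31) and the microfibrillar chain Col6a3 (1.83 ± 0.24) rose with it. In all, 10 of 16 collagen genes were higher and 2 lower, or 7 and 2 without control animals 22 and 23. The summed level of the 16 was 446.0 to 713.0 CPM in controls and 859.1 to 1194 CPM in 4 HF/HS animals, with animal 91 at 517.2 CPM. Of 22 glycoproteins and proteoglycans, 16 were higher and 1 lower (median 0.74). Vcan, versican, a proteoglycan of provisional matrix, gave 2.34, 2.70, 2.62, 1.46 and 0.934 CPM in controls and 3.28, 13.5, 9.38, 13.9 and 12.2 CPM in HF/HS, with no overlap even for animal 91 (2.36 ± 0.40, adjusted p = 3.52e-05). Mgp, matrix Gla protein (1.83 ± 0.37), Lama2, a laminin chain (1.49 ± 0.21), and Thbs2, thrombospondin 2 (1.44 ± 0.25), were also higher.

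Some enzymes that process and crosslink collagen were higher as well. Loxl1, which crosslinks elastin and collagen, was at 1.80, 1.48, 2.22, 1.93 and 1.73 CPM in controls and at 2.21, 10.5, 6.01, 7.26 and 9.32 CPM in HF/HS (1.94 ± 0.30, adjusted p = 8.73e-06). Lox (1.64 ± 0.35) and the procollagen protease Adamts2 (1.11 ± 0.22) rose too. In this list 8 of 17 genes were higher and 1 lower.

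Some of the growth factors that drive matrix-producing cells moved with them. Pdgfd, a ligand of the receptor Pdgfrb, was at 1.62, 1.68, 1.64, 1.31 and 1.44 CPM in controls and at 1.77, 5.72, 4.47, 4.21 and 5.30 CPM in HF/HS, so that every HF/HS animal was above every control (1.48 ± 0.22, adjusted p = 3.70e-06). Ltbp2, which binds microfibrils, was at 1.87 to 2.81 CPM in controls, at 2.78 CPM in animal 91 and at 6.95 to 11.8 CPM in the other 4 (1.80 ± 0.28). Pdgfb (1.42 ± 0.31), Tgfb2 (1.21 ± 0.28) and Pdgfrb itself (0.99 ± 0.17) were higher. The ligands Tgfb3 (0.48 ± 0.20) and Pdgfa (0.09 ± 0.18) were not called (named after their values were seen). Of 21 genes of the TGF-beta and PDGF pathway, 13 rose and none fell; without control animals 22 and 23, 9 rose and none fell. Of 15 stellate cell markers 4 were called, all higher (among them Dpt, Cygb and Pdgfrb), with a median of 0.14; this share of 26.7% is close to the 28.0% called among all genes. Acta2, the smooth muscle actin of activated stellate cells, gave -0.14 ± 0.20 and was not called (named after its value was seen). In whole liver, more cells of a type and more RNA per cell cannot be told apart.

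**Figure D2:**
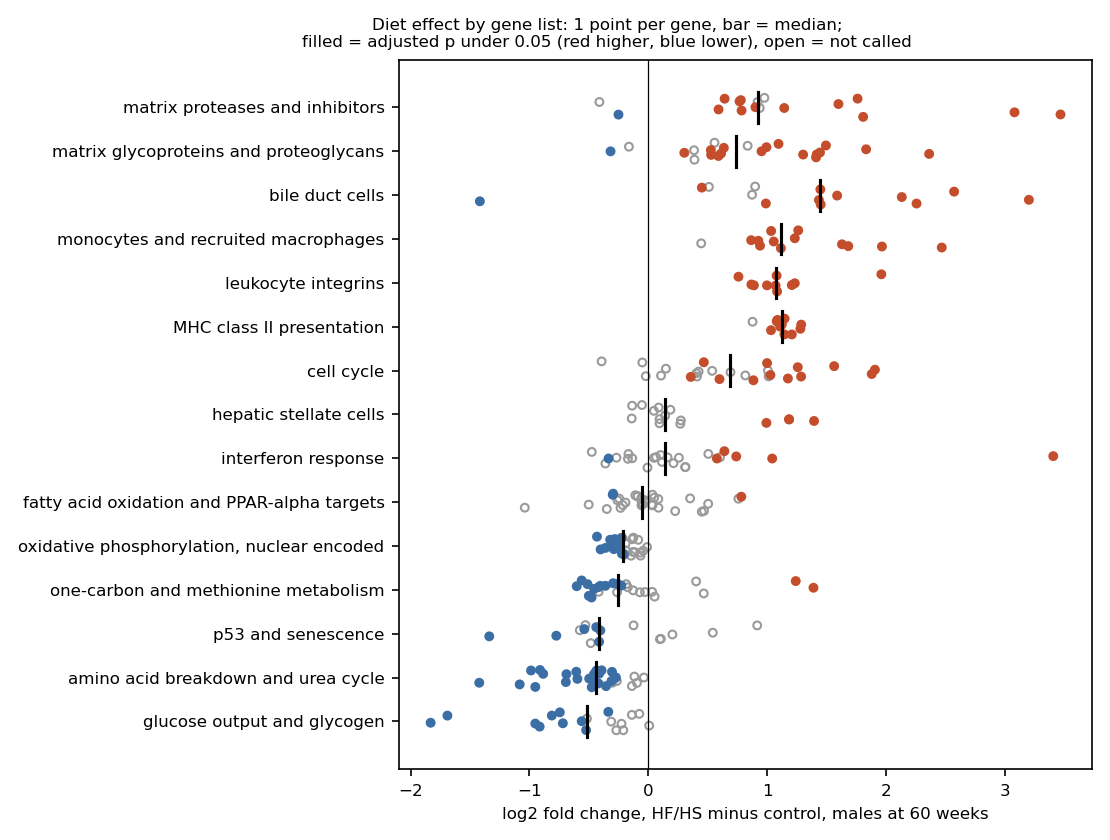
Diet effect in males at 60 weeks (log2 fold change, HF/HS minus control) for the tested members of 15 gene lists, 1 point per gene with the list median as a bar; filled points passed the threshold. Matrix, bile duct, macrophage and MHC class II genes lie mostly to the right of 0, with list medians from 0.74 to 1.44, and amino acid and glucose genes mostly to the left, with medians of -0.44 and -0.52.

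Genes of epithelial attachment and of bile duct cells were higher as well. Itga2 (mm10 chr13:114833081-114932100, minus strand), the collagen-binding integrin alpha 2 chain, was at 1.38, 2.09, 2.42, 1.39 and 2.01 CPM in controls and at 3.54, 9.998, 9.93, 17.99 and 10.9 CPM in HF/HS, without overlap (2.49 ± 0.52, adjusted p = 4.32e-04). Itgb6, the epithelial integrin chain that activates latent TGF-beta, was at 0 to 0.337 CPM in controls and at 0.126, 1.97, 1.65, 1.59 and 2.19 CPM in HF/HS (2.67 ± 0.51, adjusted p = 1.55e-04); animal 91 was inside the control range. Itgb8, another activator of latent TGF-beta (1.48 ± 0.30), and Itgb4, the hemidesmosome integrin (1.43 ± 0.31), rose alike. Of 26 epithelial integrin and junction genes 12 were higher and 1 lower, with a median of 0.18.

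Of 14 tested bile duct markers, 10 were higher and 1 lower, with a median of 1.44. Epcam, a surface protein of duct and progenitor cells, was at 1.20, 0.809, 0.523, 0.462 and 0.719 CPM in controls and at 0.884, 5.72, 4.14, 3.05 and 4.27 CPM in HF/HS (2.26 ± 0.34, adjusted p = 6.58e-06). Cldn4, a tight junction protein, was at 0 to 0.202 CPM in controls; animal 91 was at 0.0632 CPM and the other HF/HS animals were at 0.488 to 1.21 CPM (3.20 ± 0.64, adjusted p = 2.68e-04). The chloride channel Cftr (2.57 ± 0.42) and the epithelial transcription factor Ehf (2.13 ± 0.33) were higher too. For both Epcam and Cldn4, animal 91 lay inside the control range and the other 4 HF/HS animals above it. Onecut1, a transcription factor of liver, duct and pancreas development, was the member that fell (-1.42 ± 0.47). It was at 58.0 and 52.0 CPM in control animals 22 and 23 and at 7.90 to 22.0 CPM in the other controls, and the part of pancreas RNA in its fall was not tested. Without those 2 animals, 11 duct markers were higher and none lower. The pancreas list itself had 14 of 15 genes lower with a median of -6.07, and without these 2 animals the median was -3.06 and 0 passed in edgeR, where 0 of 15 also had an unadjusted p under 0.05. Tspan8, a tetraspanin of duct and tumour cells, rose by 2.13 ± 0.36, in a list of fetal liver and liver tumour genes in which 10 of 19 were higher and none lower. H19, an imprinted fetal RNA, gave 2.48 ± 0.57; how strand was handled in counting is not stated in the labels, so reads of overlapping or antisense genes may be included.

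Among the lists of immune cell markers, that of monocytes and recruited macrophages had the largest share of called genes (92.3%). Of 13 tested markers of monocytes and recruited macrophages, 12 were higher and none lower (median 1.12). Cx3cr1 (mm10 chr9:119901616-120069879, minus strand), the fractalkine receptor, was at 2.28, 1.95, 3.08, 0.770 and 0.862 CPM in controls and at 4.36, 15.8, 8.99, 10.4 and 10.9 CPM in HF/HS, without overlap (2.47 ± 0.36, adjusted p = 3.01e-06). Its ligand Cx3cl1 rose with it, from 0.847 to 1.95 CPM in controls to 4.25 to 6.41 CPM in 4 HF/HS animals, with animal 91 at 1.33 CPM (1.75 ± 0.26, adjusted p = 6.39e-06). Ccr2, the receptor that brings monocytes out of the marrow, was at 6.48, 8.56, 9.81, 3.004 and 3.45 CPM in controls and at 9.47, 25.9, 17.99, 21.6 and 22.6 CPM in HF/HS (1.63 ± 0.30, adjusted p = 1.11e-04). Ms4a7, a gene of recruited macrophages, gave 1.97 ± 0.38. Without control animals 22 and 23, 7 of the 13 were called higher. Controls 23 and 171 were the lowest in Cx3cr1 and Ccr2 and in the summed level of the 13 markers, at 92.1 and 98.9 CPM against 195.9 to 233.1 CPM in the other controls. With any 1 library of the comparison left out, 10 to 12 of the 13 were higher. Of other immune cell markers, 3 of 7 T and NK cell genes, 4 of 12 dendritic cell genes and 2 of 9 B and plasma cell genes were higher and none lower. These are shares of 42.9%, 33.3% and 22.2%, beside the 28.0% called among all genes. Without animal 252, 2 dendritic cell genes were higher. Of 5 neutrophil genes 0 passed in edgeR, with 2 at an unadjusted p under 0.05, 1 called by DESeq2 and 2 by limma voom.

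Among receptors, 14 of 23 chemokine and cytokine receptor genes were higher and 1 lower, and all 10 tested leukocyte integrins and their ligands were higher (median 1.07), 6 of them without control animals 22 and 23. Itgad, the integrin alpha D chain of tissue macrophages, was at 0.0600, 0.337, 0.327, 0 and 0.287 CPM in controls and at 0.632, 0.405, 0.497, 1.34 and 1.22 CPM in HF/HS (1.96 ± 0.55, adjusted p = 0.00647). Here animal 91 was above every control. Of the ligands, 10 of 23 chemokine and cytokine genes were called, all higher; without control animal 171 the count was 5, without control animal 23 it was 4, and without control animals 22 and 23 together it was 5. Ubd, an interferon-inducible ubiquitin-like protein, was at 0.840, 1.15, 0.654, 0 and 0.359 CPM in controls and at 1.26, 9.71, 4.41, 8.72 and 8.90 CPM in HF/HS (3.41 ± 0.56, adjusted p = 2.78e-05). In the interferon response list 5 of 24 genes were higher and 1 lower, with a median of 0.14; leaving out animals 251, 252, 23 or 171 singly left 1 or 2 higher, and without control animals 22 and 23 it was 1.

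Genes of the resident macrophages, the Kupffer cells, moved in both directions. The complement gene C1qb rose (1.16 ± 0.31), whereas Cd163 (mm10 chr6:124304656-124330527, plus strand), the haemoglobin scavenger receptor, fell. Its level was 16.9, 16.6, 22.8, 29.8 and 27.6 CPM in controls and 10.6, 4.51, 4.47, 3.05 and 5.55 CPM in HF/HS (-2.02 ± 0.39, adjusted p = 2.09e-04). Every HF/HS animal was below every control, animal 91 included. The defining Kupffer marker Clec4f was not called (0.42 ± 0.23; named after its value was seen). In the Kupffer list 5 of 12 genes were higher and 1 lower, 3 were higher without animal 251, animal 252 or control 23 taken singly, and 2 without control animals 22 and 23 together.

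MHC class II molecules display peptides to helper T cells. Their genes in antigen-presenting cells share upstream elements, an X box and a Y box, on which a complex assembles that recruits the transactivator Ciita. Ciita itself gave 1.03 ± 0.27 (named after its value was seen). Of 11 genes of this pathway 10 were higher and none lower (median 1.12), and without control animals 22 and 23, 7 were higher. RefSeq promoter entries (GRCm38.p6) matched 6 of the 11. Within the 250 bases before the start, the Y box letters TGATTGG were found on either strand in 3 of these 6 (H2-Aa, H2-Eb1 and H2-DMb1), against 8.38% of 27025 genes, and the X box letters AACNGATG in 3 of the 6 (H2-Eb1, H2-DMb1 and, named here for its match alone, Ctss, a lysosomal protease of the pathway), against 2.27%. In the stretches shown the motifs do not overlap each other. These are the 3 genes that rose and hold the Y box. The start is that of RefSeq; GENCODE begins H2-DMb1 earlier, at position 34153072, so that by that annotation its stretch lies inside the gene. A match describes the letters only. They are read 5′ to 3′ on the gene's strand, with matches in capitals: H2-Aa at chr17:34287824-34287918 (minus strand), H2-Eb1 at chr17:34305753-34305837 (plus strand) and H2-DMb1 at chr17:34153074-34153159 (plus strand).
H2-Aa: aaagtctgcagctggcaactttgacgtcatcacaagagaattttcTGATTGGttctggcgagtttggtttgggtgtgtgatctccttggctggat
H2-Eb1: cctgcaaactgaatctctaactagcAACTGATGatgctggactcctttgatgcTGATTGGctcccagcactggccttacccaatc
H2-DMb1: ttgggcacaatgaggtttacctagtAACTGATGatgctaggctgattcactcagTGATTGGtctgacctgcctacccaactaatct

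H2-Aa, the alpha chain of I-A, was at 71.3, 76.5, 63.5, 21.8 and 22.4 CPM in controls and at 54.8, 128.4, 101.5, 175.8 and 164.1 CPM in HF/HS (1.29 ± 0.27, adjusted p = 4.20e-04). H2-Eb1, the beta chain of I-E, gave 63.4, 64.5, 56.9, 19.3 and 26.5 CPM in controls and 52.7, 106.5, 83.5, 151.0 and 140.4 CPM in HF/HS (1.21 ± 0.25, adjusted p = 4.63e-04). H2-DMb1, which helps load peptides, was at 5.10, 4.24, 4.71, 1.16 and 1.51 CPM against 4.36, 7.97, 6.84, 10.7 and 11.2 CPM (1.28 ± 0.32, adjusted p = 0.00250). In all 3 genes, control animals 23 and 171 were the lowest, HF/HS animals 251 and 252 the highest, and animal 91 was inside the control range. Fitted on the 10 libraries alone, without the spread of the rest of the series, H2-Aa had an adjusted p of 0.0527. Genes of this family have near-identical copies, and the authors' counting could have split their reads.

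Cell cycle genes were higher in 12 of 25 cases and lower in none (median 0.69). Aurkb, a mitotic kinase, was at 0.600, 0.337, 0.327, 0 and 0.144 CPM in controls and at 0.126, 1.21, 1.16, 1.10 and 1.89 CPM in HF/HS (1.88 ± 0.52, adjusted p = 0.00568); without control animals 22 and 23 it was at 1.53 with an adjusted p of 0.0547. The summed level of the 25 genes was 80.3 to 142.9 CPM in controls, 101.2 CPM in animal 91 and 182.0 to 234.9 CPM in the other HF/HS animals. The count of calls rested on single libraries: it was 16 without animal 91, 7 without animal 92, 5 without animal 101, 4 without animal 251, 3 without animal 252, 5 without control 22, 3 without control 23 and 3 without control 171, and 1 without controls 22 and 23 together. At the same time 6 of 15 p53 and senescence genes were lower and none higher (median -0.41), and 3 were lower without control 171. Ccng1 (mm10 chr11:40748552-40755311, minus strand), cyclin G1, a classical p53 target, was at 128.4, 150.7, 163.1, 129.6 and 150.5 CPM in controls and at 108.3, 115.4, 106.4, 97.9 and 105.2 CPM in HF/HS, without overlap (-0.44 ± 0.12, adjusted p = 0.00537).

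By number of genes, amino acid breakdown and the urea cycle had the most members lower of the 65 lists, although by share the pancreas list (14 of 15) had more. Of 30 genes, 24 fell and none rose, with a median of -0.44; 26 fell without animal 91 and 20 without control animals 22 and 23. Summed over the list, the controls lay between 19750 and 22880 CPM, animal 91 at 17430 CPM and the other HF/HS animals between 12970 and 15080 CPM, so the groups did not overlap. Got1 (mm10 chr19:43499752-43524605, minus strand), the cytosolic aspartate aminotransferase, was at 352.0, 402.7, 325.8, 327.2 and 394.0 CPM in controls and at 139.3, 154.8, 155.6, 98.8 and 124.0 CPM in HF/HS (-1.42 ± 0.18, adjusted p = 4.40e-07). Gls2 (mm10 chr10:128194457-128210004, plus strand), the liver glutaminase that feeds ammonia to the urea cycle, was at 303.4, 278.6, 237.1, 261.6 and 306.0 CPM against 166.7, 138.2, 146.8, 126.9 and 121.2 CPM (-0.99 ± 0.13, adjusted p = 3.79e-07). In both genes all HF/HS animals, animal 91 included, were below all controls. Hal, histidine ammonia lyase (-0.91 ± 0.12), and Acmsd, which diverts tryptophan carbon from NAD synthesis (-1.08 ± 0.23), fell likewise. Cps1, which starts the urea cycle, fell by 0.46 ± 0.13 on the log2 scale.

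Of 25 one-carbon and methionine genes 12 were lower and 2 higher (median -0.26). Gnmt, which consumes S-adenosylmethionine, fell (-0.60 ± 0.09), as did Shmt1, cytosolic serine hydroxymethyltransferase (-0.56 ± 0.09). The genes that rose make serine and formate: Psat1, phosphoserine aminotransferase, was at 1.14, 0.876, 1.05, 0.462 and 0.719 CPM in controls and at 1.20, 1.91, 2.37, 2.44 and 2.26 CPM in HF/HS (1.24 ± 0.34, adjusted p = 0.00608), and mitochondrial Mthfd1l gave 1.39 ± 0.38. Psat1 was higher in every HF/HS animal than in any control, but in animal 91 only narrowly.

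Of 18 genes of glucose output and glycogen, 10 were lower and none higher (median -0.52). G6pc (mm10 chr11:101367561-101377903, plus strand), glucose-6-phosphatase, which releases glucose from hepatocytes, was at 504.8, 540.9, 325.4, 516.8 and 1005 CPM in controls and at 235.2, 173.8, 171.7, 134.6 and 180.9 CPM in HF/HS (-1.69 ± 0.33, adjusted p = 1.68e-04). Fbp1, fructose-1,6-bisphosphatase, showed a small and tight change: 759.1, 666.3, 659.7, 660.7 and 762.9 CPM in controls and 535.1, 470.7, 503.5, 444.3 and 425.7 CPM in HF/HS (-0.56 ± 0.07, adjusted p = 3.79e-07). Neither gene overlapped between the diets. Ppp1r3g, a glycogen targeting subunit, fell by 1.83 ± 0.57 on the log2 scale.

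Glycolysis and fructose genes split. Gckr, the glucokinase regulator, fell from 231.4, 241.0, 244.6, 265.5 and 240.0 CPM in controls to 188.7, 166.7, 171.7, 167.5 and 172.2 CPM (-0.50 ± 0.06, adjusted p = 3.79e-07). Pklr, the liver pyruvate kinase, was at 471.2, 330.9, 445.9, 448.1 and 666.8 CPM against 289.9, 214.0, 274.1, 210.3 and 208.8 CPM (-0.98 ± 0.18, adjusted p = 1.09e-04). The hexokinase of other tissues, Hk2 (1.25 ± 0.39), and the pyruvate kinase of other tissues, Pkm (0.88 ± 0.26), rose instead. In total 6 of 21 genes were lower and 3 higher. Slc2a4, the insulin-responsive glucose transporter known from muscle and fat, was at 9.96, 8.15, 9.95, 5.86 and 13.8 CPM in controls and at 3.28, 2.60, 2.87, 3.17 and 3.47 CPM in HF/HS, without overlap (-1.63 ± 0.42, adjusted p = 0.00348). The fat cell genes Adipoq (-3.63 ± 0.98) and Plin1 (-3.09 ± 0.95) were lower in HF/HS too. Adipoq was at 1.26, 1.48, 1.24, 0.231 and 0.575 CPM in controls and at 0, 0.173, 0.0552, 0.122 and 0 CPM in HF/HS, without overlap. Of the 6 fat tissue genes tested, 2 were lower and 1 higher. Their mean log2 CPM overlapped, at 2.10 to 2.97 in controls and 0.99 to 2.30 in HF/HS. Their summed levels were 1935 to 2243 CPM in controls and 1250 to 1606 CPM in HF/HS. Adipoq was only a trace of these sums, which therefore do not measure fat tissue. The part of fat tissue RNA in the fall of Slc2a4 was not tested.

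Nuclear-encoded subunits of oxidative phosphorylation were lower in 13 of 28 cases and higher in none, with a median of -0.21; 6 were lower without animal 251 and 8 without control 171. Ndufb8 of complex I changed by -0.43 ± 0.11. Of 26 complement and coagulation genes 9 were lower and none higher, a share of 34.6% beside the 28.0% called among all genes. Among them were Mbl2, mannose-binding lectin (-0.76 ± 0.10), and F7, coagulation factor VII (-0.50 ± 0.10). In the list of hepatocyte markers, which were abundant in every library, 7 of 15 genes were lower and none higher, with summed levels of 30100 to 36670 CPM in controls and 27320 to 29240 CPM in HF/HS.

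**Figure D3:**
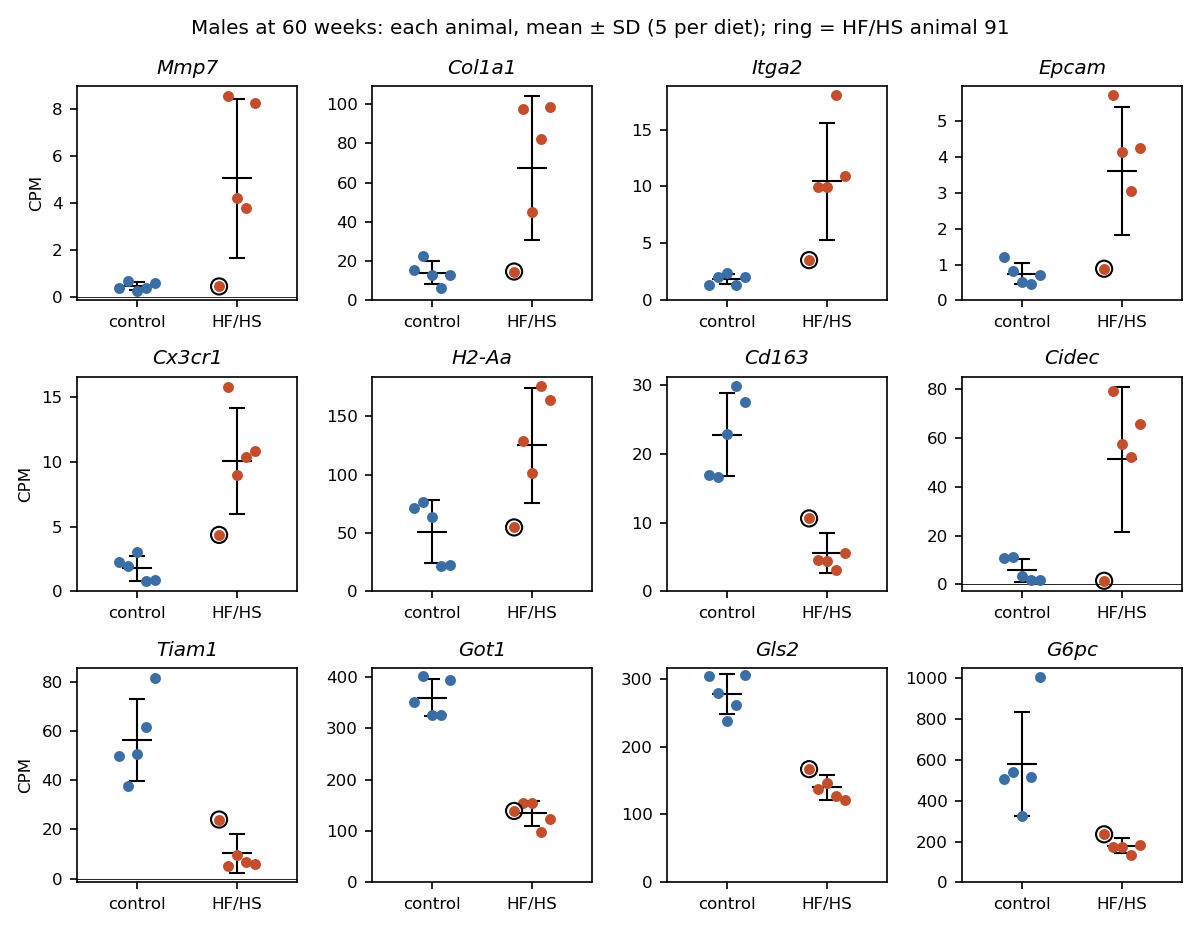
Level (CPM) of 12 genes in each male at 60 weeks, with mean ± SD of 5 animals per diet; the ring marks HF/HS animal 91. In Cd163, Tiam1, Got1, Gls2, G6pc, Itga2 and Cx3cr1 the ranges of the diets do not overlap, while in Mmp7, Col1a1, Epcam and H2-Aa animal 91 lies among the controls and in Cidec just below them.

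Lipid lists differed in how many members passed. Of 20 genes of fatty acid synthesis 3 were higher and 2 lower, of 26 of triglyceride storage 4 and 4, of 32 of fatty acid oxidation 1 and 2, and of 24 of cholesterol synthesis 1 and 2, shares near or under the 28.0% called among all genes. Cidec (mm10 chr6:113424634-113435760, minus strand), which enlarges lipid droplets, was at 10.9, 11.0, 3.60, 1.77 and 2.01 CPM in controls and at 1.52, 79.2, 57.5, 52.3 and 65.8 CPM in HF/HS (3.10 ± 0.58, adjusted p = 1.22e-04). Animal 91 was below every control and the other 4 far above. Scd2, a stearoyl-CoA desaturase best known from brain, was at 39.4, 33.6, 18.3, 15.9 and 48.0 CPM against 19.8, 127.2, 144.0, 185.5 and 140.7 CPM (1.99 ± 0.37, adjusted p = 9.96e-05). Elovl7, a fatty acid elongase, was at 1.92, 1.48, 1.31, 0.770 and 0.431 CPM against 0.821, 12.5, 9.21, 10 and 11.6 CPM (2.87 ± 0.46, adjusted p = 1.80e-05). For Scd2 and Elovl7 too, animal 91 was among the controls. The enzymes that carry most hepatic fat synthesis, Fasn (-0.61 ± 0.37) and Scd1 (-0.15 ± 0.17), were not called.

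In the sphingolipid list 6 of 22 genes were higher and 3 lower. Smpd3, neutral sphingomyelinase, which releases ceramide from sphingomyelin, was at 8.64, 10.6, 7.001, 2.003 and 7.62 CPM in controls and at 11.2, 26.1, 26.6, 56.5 and 28.0 CPM in HF/HS, without overlap (2.04 ± 0.39, adjusted p = 1.75e-04). Of the apolipoprotein and lipoprotein genes 8 of 20 were lower and 1 higher, or 5 and 1 without control animals 22 and 23. Of 17 genes of cholesterol efflux and oxysterol receptors 4 were higher and 4 lower, a share of 47.1%, and 1 higher and 4 lower without those animals. Apoc3, an inhibitor of lipoprotein clearance, fell (-0.55 ± 0.08), and the gene that rose was Lpl, lipoprotein lipase, which is scarce in normal adult liver (1.72 ± 0.29).

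Among called genes whose ranges did not overlap between the diets, several of the deepest falls were outside the lists. Pcdh20, a protocadherin, was at 3.96, 2.43, 2.16, 5.93 and 6.39 CPM in controls and at 0.568, 0.116, 0.331, 0.183 and 0 CPM in HF/HS (-4.08 ± 0.79, adjusted p = 1.71e-04). Dnah17, an axonemal dynein chain, gave 2.04, 1.68, 3.80, 8.32 and 5.39 CPM against 0.884, 0.173, 0.441, 0.366 and 0.427 CPM (-3.19 ± 0.52, adjusted p = 1.91e-05). Lrtm1, a transmembrane protein with leucine-rich repeats, was at 19.9, 13.9, 15.7, 24.9 and 32.0 CPM against 5.31, 3.99, 3.14, 1.34 and 1.95 CPM (-2.75 ± 0.44, adjusted p = 1.47e-05). In these 3 genes every HF/HS animal was below every control, but the rule for naming the lowest fold changes admitted only genes with ranges apart. Etnppl, which breaks down phosphoethanolamine, was at 71.5 to 236.3 CPM in controls and at 60.1, 38.6, 47.1, 26.1 and 42.0 CPM in HF/HS (-1.78 ± 0.38, adjusted p = 5.36e-04). On the rising side, Dab1, the adaptor of reelin signalling, was at 2.16, 2.09, 1.57, 1.39 and 0.934 CPM against 2.53, 9.54, 8.22, 9.94 and 10.7 CPM (2.31 ± 0.30, adjusted p = 3.79e-07).

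Tiam1 and Tiam2 encode related exchange factors that activate the small GTPase Rac. Tiam1 (mm10 chr16:89787111-90143769, minus strand) was at 49.8, 37.7, 50.6, 61.9 and 81.8 CPM in controls and at 24.1, 5.20, 9.43, 6.71 and 5.97 CPM in HF/HS (-2.46 ± 0.30, adjusted p = 1.80e-07). Tiam2 (mm10 chr17:3326573-3531344, plus strand) was at 3.78, 2.76, 2.16, 4.93 and 3.59 CPM against 1.26, 0.809, 0.552, 0.549 and 0.427 CPM (-2.25 ± 0.55, adjusted p = 0.00217). Both fell in all 5 HF/HS animals, with animal 91 the highest of them.

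The diet effect in males at 60 weeks was then compared with that in females at the same week. The groups are separate animals, and the difference was tested in the same fit. It passed the threshold in 121 genes, or 0.853% of those tested, 61 with the larger value in males and 60 with the larger value in females. Tiam1 was one of them: its diet effect was -2.46 ± 0.30 in males and 0.44 ± 0.38 in females (difference -2.90 ± 0.47, adjusted p = 1.99e-04), whereas Tiam2 fell in both sexes (-2.25 ± 0.55 in males, -3.42 ± 0.47 in females; difference 1.17 ± 0.75, adjusted p = 0.576). Cyp3a11, the main inducible drug-metabolising cytochrome of mouse liver, rose by 1.64 ± 0.44 in males and by 6.66 ± 0.57 in females (difference -5.02 ± 0.67, adjusted p = 2.61e-06). In the males its levels were 359.7, 957.7, 369.2, 163.1 and 249.6 CPM on the control diet and 332.5, 1647, 1167, 1610 and 1776 CPM on HF/HS, and without control animals 22 and 23 the effect in males was 1.30 with an adjusted p of 0.0659. Cyp3a genes are close copies of each other and their counts are uncertain for that reason. Scd2 rose less in males (1.99 ± 0.37) than in females (4.96 ± 0.41; adjusted p of the difference = 4.60e-04), and so did Gpnmb, a glycoprotein of lipid-laden macrophages (1.17 ± 0.44 against 5.52 ± 0.59; adjusted p = 3.98e-04). Gpnmb overlapped widely between the male groups, at 11.5, 26.1, 12.4, 1.001 and 1.37 CPM in controls and at 13.2, 29.8, 13.9, 29.0 and 33.1 CPM in HF/HS. Mtnr1a, the melatonin receptor, was not called in males (0.60 ± 0.24) and gave 5.33 ± 0.49 in females (adjusted p of the difference = 6.12e-07). Cdh1, E-cadherin, went in opposite directions, 1.02 ± 0.28 in males and -0.78 ± 0.26 in females (adjusted p of the difference = 0.00614).

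**Figure D4:**
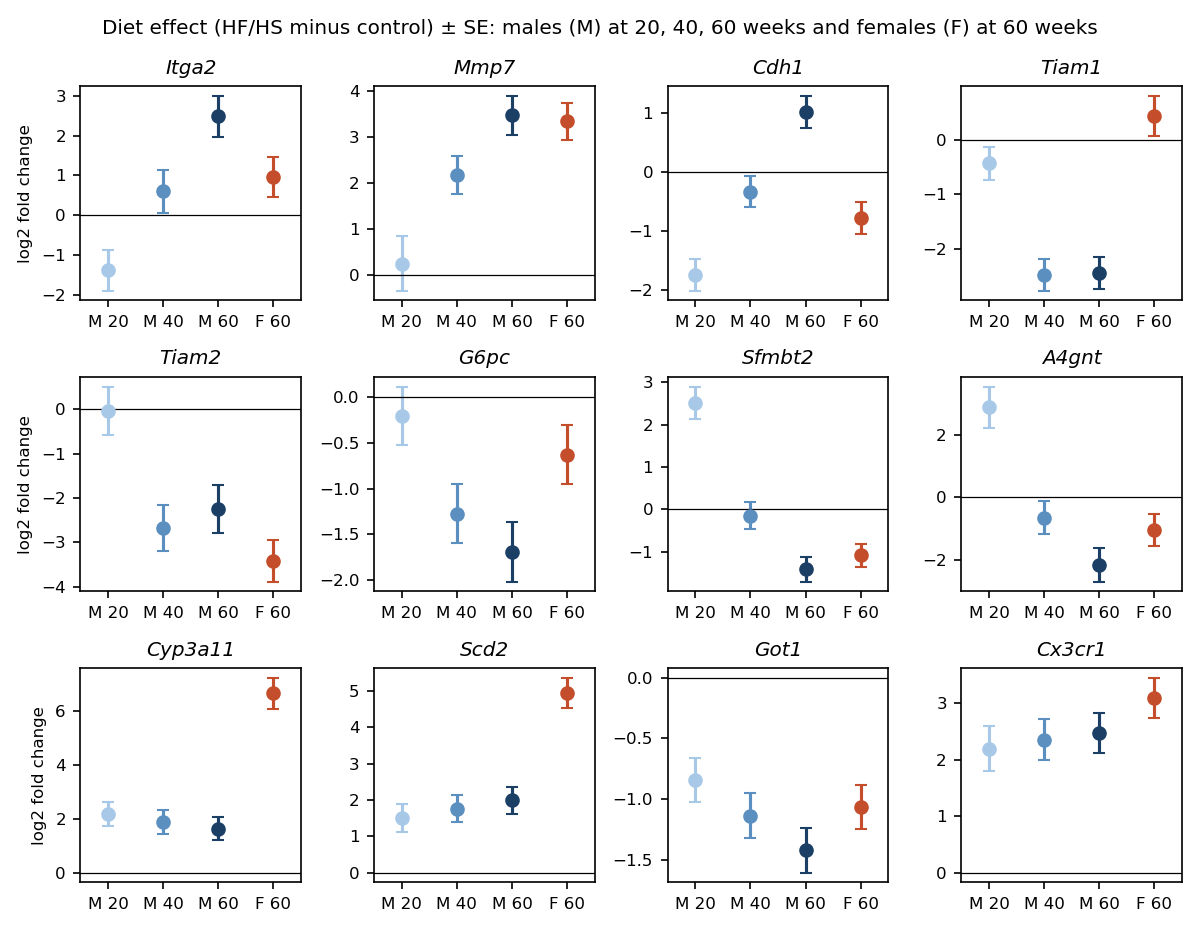
Diet effect ± SE (log2 fold change, HF/HS minus control) of 12 genes in males at 20, 40 and 60 weeks and in females at 60 weeks, 5 animals per group. Cdh1, Itga2, Sfmbt2 and A4gnt have effects of opposite sign in males at 20 and 60 weeks, Tiam1 lies at -2.48 and -2.46 in males at 40 and 60 weeks and between -0.42 and 0.44 in the other 2 groups, and Cyp3a11 and Scd2 are highest in females.

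Against males at 20 weeks, 1312 genes (9.25%) had a different diet effect at 60 weeks, 736 with a higher and 576 with a lower value. Cdh1 (mm10 chr8:106603351-106670246, plus strand) changed sign, from -1.75 ± 0.27 at 20 weeks to 1.02 ± 0.28 at 60 weeks (difference 2.77 ± 0.38, adjusted p = 4.51e-06). At 60 weeks it was at 9.30, 9.57, 9.88, 23.3 and 25.01 CPM in controls and at 33.7, 28.5, 27.4, 32.4 and 33.4 CPM in HF/HS, animal 91 being the highest. Itga2 went from -1.39 ± 0.51 to 2.49 ± 0.52 (difference 3.88 ± 0.73, adjusted p = 3.96e-04). Mmp7 showed 0.25 ± 0.59 at 20 weeks against 3.47 ± 0.42 (difference 3.21 ± 0.76, adjusted p = 0.00480), and Dab1 0.07 ± 0.29 against 2.31 ± 0.30 (difference 2.24 ± 0.42, adjusted p = 3.43e-04).

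Other genes turned from higher to lower. Sfmbt2, a Polycomb protein, had a diet effect of 2.51 ± 0.38 at 20 weeks and of -1.41 ± 0.29 at 60 weeks (difference -3.92 ± 0.48, adjusted p = 2.99e-07), where it was at 8.70, 6.81, 8.70, 7.01 and 12.2 CPM in controls and at 4.67, 2.77, 4.97, 2.50 and 1.40 CPM in HF/HS. A4gnt, a glycosyltransferase of gastric-type mucins, went from 2.88 ± 0.65 to -2.15 ± 0.53 (difference -5.03 ± 0.84, adjusted p = 7.83e-05), with 57.3, 34.2, 43.3, 27.5 and 47.6 CPM in controls and 4.93, 10.5, 15.2, 6.83 and 9.75 CPM in HF/HS at 60 weeks. Both genes were lower in every HF/HS male at 60 weeks than in any control. Tiam1 was not called at 20 weeks (-0.42 ± 0.30; adjusted p of the difference = 0.00113). Among glucose genes, Fbp1 (0.01 ± 0.07 at 20 weeks), Gckr (-0.01 ± 0.06) and Pklr (0.25 ± 0.18) were not called at 20 weeks and fell at 60 weeks, with adjusted p of the difference of 1.61e-04, 3.11e-04 and 0.00123. In the glycolysis and fructose list 6 of 21 genes differed between the weeks, all lower at 60, and in the glucose output list 4 of 18, all lower, or 2 without animal 251.

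The p53 and senescence list held 15 genes, of which 9 were higher and none lower at 20 weeks, 3 higher and none lower at 40 weeks, and 6 lower and none higher at 60 weeks. The difference between 60 and 20 weeks passed the threshold in 10 of the 15, all lower at 60 weeks, and in 7 to 10 when any 1 library was left out. Ccng1 went from 0.60 ± 0.12 to -0.44 ± 0.12 (difference -1.03 ± 0.17, adjusted p = 6.33e-05). Gdf15, a stress-induced cytokine, had an effect of 2.03 at 20 weeks and of -1.34 ± 0.34 at 60 weeks, though the latter was -0.54 and not called without control animal 171. Eda2r, a receptor known as a p53 target, was at 1.89 and -0.77 ± 0.28; without control animal 22 the latter was not called (-0.57).

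The ribosomal, cholesterol and acute phase lists also differed between 20 and 60 weeks, on counts that moved with single libraries. Of 30 cytosolic ribosomal protein genes, 29 were lower at 20 weeks, while at 60 weeks 3 were higher and none lower; the difference passed in 20 and, with 1 library left out, in 12 to 24. It was 12 or 13 without any of HF/HS animals 91, 92, 271, 411, 412 and 413 or of controls 21, 22, 371, 372 and 373. Rplp0 went from -0.17 to 0.18 ± 0.06. Of 24 cholesterol synthesis and uptake genes, 18 were lower at 20 weeks and 2 at 60 weeks; the difference between the weeks passed in 8, and in 4 to 12 with 1 library left out (4 without control 372, 5 without animal 251 or control 171, 12 without animal 91). Sqle, squalene epoxidase, had an effect of -2.48 at 20 weeks and of 1.27 ± 0.46 at 60 weeks. Of 24 acute phase genes, 13 were lower at 20 weeks and none at 60 weeks; the difference passed in 12, but in none without control animal 373 of the 20 week group and in 3 to 7 without any of animals 11, 23, 91, 101, 171, 251, 271, 371, 411, 412 and 413. Orm1, alpha-1-acid glycoprotein, gave -2.92 ± 1.005 at 20 weeks and 2.47 ± 1.003, not called, at 60 weeks; it was at 3.08 to 71.6 CPM in the controls at 60 weeks and at 51.2 to 266.1 CPM in HF/HS, with overlap.

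**Figure D5:**
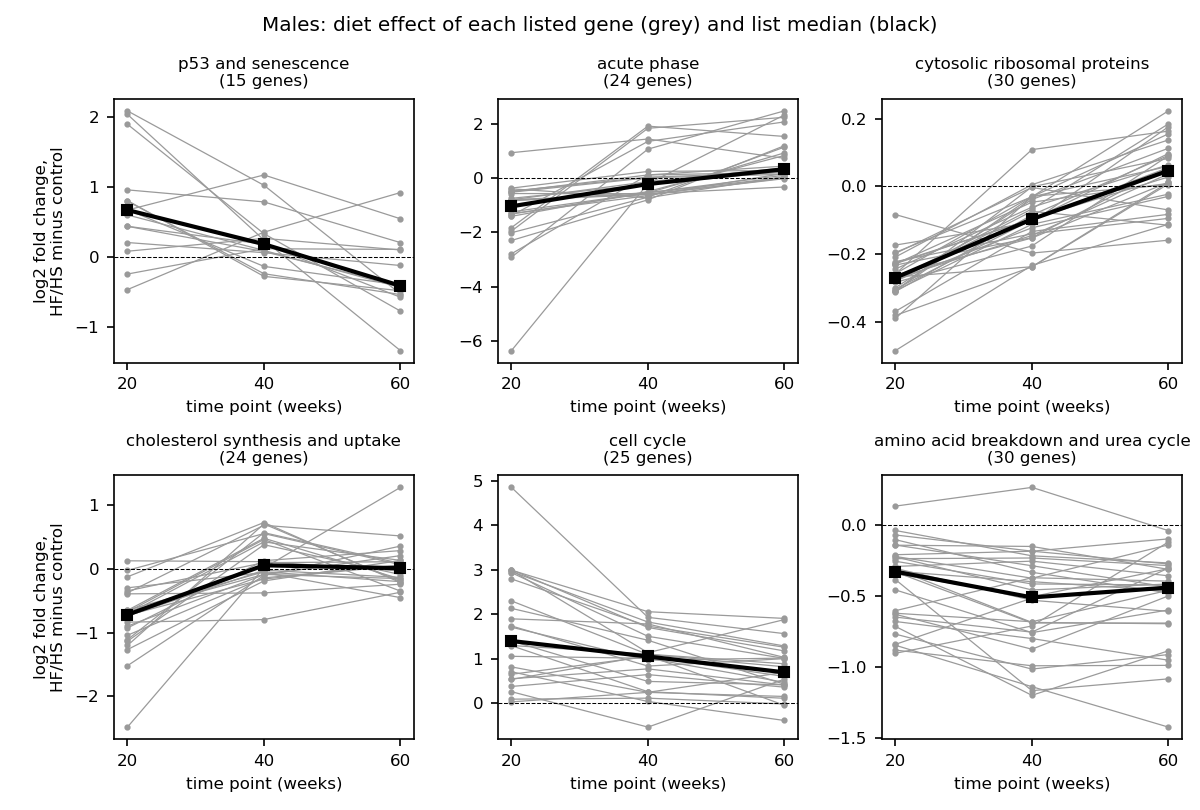
Diet effect in males (log2 fold change, HF/HS minus control) at 20, 40 and 60 weeks for each tested gene of 6 lists, with the list median in black; animals differ between the weeks. The median of the 15 p53 and senescence genes passes from above 0 at 20 weeks to -0.41 at 60 weeks, whereas the 30 amino acid genes have a median below 0 at each week.

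The diet effect in males was also compared between 40 and 60 weeks. The difference passed the threshold in 23 genes, or 0.162% of those tested, 10 with a higher and 13 with a lower value at 60 weeks, and 1738 had an unadjusted p under 0.05. The count depended on the method: it was 67 with DESeq2, 778 with limma voom and 74 without control animals 22 and 23. It was 63 without control animal 23 and 40 without control animal 171 of the 60 week group. Among the 23, the phase I enzyme Cyp2a5 had an effect of 1.54 at 40 weeks and of -1.07 ± 0.33 at 60 weeks. Cyp2a5 has close copies, so that its counts are uncertain. Fndc3b, a fibronectin domain protein, had a difference of 1.03, and Phlpp2, a phosphatase of AKT, a difference of 0.71. The effects of Cx3cr1 (2.36 ± 0.36 at 40 weeks), Mmp7 (2.17 ± 0.42), Tiam1 (-2.48 ± 0.29) and Gls2 (-0.99 ± 0.13) at 40 weeks did not pass a test against those at 60 weeks (adjusted p from 0.370 to 0.999).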

How the data were processed

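Per the labels, total RNA of 60 mouse livers was sequenced, and the authors deposited 1 table of raw read counts per gene with 24982 entries; the submitters' processing notes name mm10, while for aligner, annotation and strand setting nothing is stated (not given in the sources used here). Of the entries, 26 had calendar dates as symbols (0.201% of counts) and no mitochondrial gene was listed. Column names carry the animal number, week, diet and sex, and each column is a different animal.

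Genes were kept by filterByExpr (minimum count 10), scaled by TMM, and fitted as 12 group means over all 60 libraries with edgeR 4.0.16 (quasi-likelihood F test, R 4.3.3), which shares 1 estimate of spread among groups; the 10 libraries alone were an alternative. Differences between diet effects were contrasts of the same fit. The standard error is the absolute log2 fold change divided by the square root of F. No 2 libraries of these groups agreed within sampling noise (lowest chi-square per degree of freedom 6.64). On simulated data for the male 60 week comparison, 200 of 14180 genes were changed, and 62.3% of 1.5-fold, 71.2% of 2-fold and 100% of 4-fold changes were recovered; 13 of 171 calls were false. The simulated libraries shared 1 mean profile apart from the changed genes. In the real comparison 28.0% of genes were called and animals of a group differed, so these rates need not hold there.

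The comparison, the 65 gene lists and a panel of 30 genes were chosen with earlier results of these data known. Genes were named by rule: the 15 highest and 15 lowest fold changes among those that passed, given ranges apart and a mean level of 1 CPM or more, the 10 lowest p, up to 4 called members per list, the panel, and 6 per direction of each difference. Gene positions are from GENCODE M21, promoters from RefSeq. Alternatives were limma voom, DESeq2 1.42.0, RLE scaling, no filter, removal of small RNA entries, a 1.5-fold threshold and omission of libraries. Not every list is described, and some items are not reported here.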

Additional observations from a re-analysis of the deposited data

Results flagged for a closer look

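In 8 of 118 groups of 5 values searched, 1 animal lay apart from the other 4 by Dixon's ratio (critical value 0.71), which chance gives in about 1 group in 20. Animal 91 of the HF/HS group accounted for 4: Gckr at 188.7 CPM, Elovl7 at 0.821 CPM, Tiam1 at 24.1 CPM and a mean log2 CPM of 0.98 over the cell cycle list, each on the side of the controls. Control animal 171 accounted for 2, with Itgb6 at 0 CPM and Mtnr1a at 4.53 CPM. Control animal 11 had Timp1 at 0.540 CPM, and control animal 21 had Cyp3a11 at 957.7 CPM.

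The diet effect of several genes differed between males at 60 and at 20 weeks, as a log2 difference of 60 minus 20 weeks tested in edgeR. It was above 0 for Mmp7 (3.21), Itga2 (3.88), Cdh1 (2.77), Dab1 (2.24), Casp12 (1.77) and the growth factor Pdgfd (1.02). It was below 0 for Gpnmb (-6.83), A4gnt (-5.03), Sfmbt2 (-3.92), Lrtm1 (-2.88), Slc2a4 (-2.12), Tiam1 (-2.03), G6pc (-1.48), Pklr (-1.23), H2-Eb1 (-1.12), Ccng1 (-1.03), Fbp1 (-0.57) and Gckr (-0.49). H2-Eb1 (adjusted p = 0.0424), G6pc (0.0290), Pdgfd (0.0289) and Slc2a4 (0.0243) had the highest adjusted p of these.

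Between males and females at 60 weeks the diet effect differed for Cyp3a11 (-5.02), Mtnr1a (-4.73), Gpnmb (-4.35), Scd2 (-2.97), Tiam1 (-2.90) and Cdh1 (1.80), as males minus females. Cdh1 was the gene of these 6 with a higher diet effect in males than in females.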

How the results depend on the processing

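The 3974 genes called in males at 60 weeks (2197 higher, 1777 lower) were 2015 (1219 and 796) when only the 10 libraries were fitted, 1662 (877 and 785) when that fit also held a term for animal numbers over 150, 277 (250 and 27) when tested against a 1.5-fold change, and 2602 (1263 higher) without control animals 22 and 23. Leaving out 1 library at a time gave 2785 to 5143 called genes, 1486 to 2483 higher and 1299 to 2660 lower; without animal 91 it was 5143. The difference between males and females (121 genes) became 205 with DESeq2 and 395 with limma voom, and 75 to 170 with 1 library left out, the 75 without female HF/HS animal 122. The difference between 60 and 20 weeks (1312 genes) ranged from 872, without control animal 373 of the 20 week group, to 1710. The difference between 60 and 40 weeks (23 genes) became 11 in the 30 male libraries, 67 with DESeq2, 778 with limma voom and 74 without control animals 22 and 23, and 12 to 63 with 1 library left out. The cause of these shifts was not tested. Higher genes outnumbered lower ones with all libraries, but not without animal 91 (2483 and 2660) nor without control animals 22 and 23 (1263 and 1339). Without control animal 21 they did not either (2208 and 2218). Of 247 named genes called in the main comparison, 65 kept direction and call under every alternative, and 240 did without animal 91. No paired analysis was possible because the animal numbers differ between all groups.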

Other observations

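Over all genes, the number lower in HF/HS was 1777 with HF/HS animal 91 and 2660 without it, and several hepatocyte lists are given here in the same 2 ways. Of 24 male-biased liver genes, 3 were lower and none higher with all animals (median -0.45), and 16 were lower and none higher without animal 91 (median -1.08). The controls differed too: the mean log2 CPM of this list was 7.39 and 7.56 in controls 23 and 171 and 6.49 to 6.77 in the others. It was 7.84 in animal 91, above every control, and 5.97 to 6.43 in the other HF/HS animals. Of 33 xenobiotic cytochrome and conjugation genes, 7 were lower and 1 higher, a share of 24.2% beside the 28.0% called among all genes, against 13 and 1 without it. Of 18 bile acid synthesis genes 8 were lower and none higher, against 11 and none. Nr0b2, the bile acid-responsive repressor SHP, was lower (-1.09), as was the conjugating enzyme Baat (-0.46). The uptake carriers Slc10a1 (-0.53) and Slc22a7 (-1.26) fell too, in a list of 19 bile acid and drug transporters with 6 lower and 3 higher.

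Of 22 genes of the growth hormone and insulin-like growth factor axis 8 were lower and 3 higher, among them Igfals, which stabilises circulating IGF (-0.70), and Irs2, an adaptor of the insulin receptor (-0.67), on the lower side and Igf1r (0.66) on the higher; 5 were lower without animal 252 or without control 23. Of 24 glutathione and NRF2 genes 6 were higher and none lower, a share of 25% and so under that of all genes, with the cystine carrier Slc7a11 at 1.94 and the secreted peroxidase Gpx3 at 1.82; 2 were higher without control 23.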
